A study of Mus musculus with 4 samples.

Results

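Pdgfra, Cspg4, Olig1, Olig2, Gpr17, Bcas1 and Enpp6 mark the oligodendrocyte lineage from its dividing precursors to cells that begin to myelinate. They were taken by symbol from the deposited spatial count table, which held all 7 of them among 19465 genes. Their levels were followed across areas of the mouse brain and across the 4 sets of spots in the table. Coronal brain sections of 4 mice that included the striatum were measured, from 2 wild-type mice and 2 mice heterozygous for Celsr3, which encodes an adhesion receptor of the cadherin family. The mice received no treatment, and their age and sex are not given in the sources used here. The assay was Visium CytAssist for fixed, paraffin-embedded tissue, in which probes to part of each transcript are counted on a grid of spots that can each hold several cells. Each spot name ends in a number from 1 to 4, and these endings match no label of a mouse or genotype, so the sets they form are called sets 1 to 4 here and no genotype comparison was made.

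Oligodendrocyte precursors are found throughout the adult brain, where they divide in response to platelet-derived growth factor through the receptor encoded by Pdgfra and carry the surface proteoglycan encoded by Cspg4, also called NG2. Olig1 and Olig2 encode basic helix-loop-helix factors that specify the lineage, and Olig2 stays on in mature cells. A precursor that leaves the cycle passes through a committed stage marked by Gpr17, an orphan G protein-coupled receptor that restrains maturation, and then turns on Bcas1 and Enpp6, which mark cells that are starting to form myelin. Enpp6 encodes a choline phosphodiesterase. Pdgfra is also made by fibroblasts of the meninges, and Cspg4 by pericytes and other mural cells of blood vessels.

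Sets 1 to 4 held 3055, 2808, 3445 and 3294 spots with medians of 52481, 38181.5, 44972 and 26444.5 counts per spot. Among all spots 4744 different barcodes were found, and 1613 of them occurred in all 4 sets. A barcode of this assay marks a position on the capture grid. Levels are CPM: all counts of a gene in the spots of 1 area and set were divided by the total count of those spots and scaled to 1000000. Their 95% intervals are exact Poisson intervals, and ratios of levels have exact conditional binomial intervals. Both cover counting error only. Levels of different genes are not comparable, because each is read by its own probes. In these spots, fewer cells of a type and less RNA per cell cannot be told apart.

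Spots were placed in areas by marker genes that exclude the 7 genes. The area with high myelin markers (such as Mobp, Mog and Mag) held 886, 757, 992 and 974 spots in sets 1 to 4. It is called myelin-rich here, because only 1166 of its 3609 spots lay in clusters of spots named as white matter and 1381 lay in clusters named as hypothalamus and basal forebrain. Its myelin content overlapped that of the other areas. In the lowest of 5 bins of its spots, the median summed myelin markers were 4494 to 9161 CPM over the sets. In the highest such bin they were 5369 to 10043 CPM for cortex and 6938 to 15719 CPM for striatum. Striatum held 661, 657, 766 and 479 spots, and cortex held 883, 976, 1113 and 1056. The meninges held 74 to 118 spots a set, the lining of the ventricles 80 to 120, and 95 to 358 spots fell in no area. The remaining areas reached 20 spots in some sets only, which were thalamus in sets 1 and 4, hypothalamus and basal forebrain in sets 1 to 3, and choroid plexus in sets 1 and 3.

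Promoter sequences for 4 of the 7 genes were found in RefSeq for build GRCm38.p6, and they are shown because these 4 cover the receptor, the proteoglycan, a lineage factor and the early myelination enzyme whose levels are compared below. Each runs 5′ to 3′ on the + strand, from 250 bases before to 50 bases after a start site, at chr5:75152001-75152300 for Pdgfra, chr9:56864854-56865153 for Cspg4, chr16:91225300-91225599 for Olig2 and chr8:46986637-46986936 for Enpp6. The windows of Pdgfra and Enpp6 do not begin at the outermost start of the annotated gene. Capitals mark matches to the motifs searched on both strands, which were TATAAA, the SOX core ACAAAG or ACAATG, and the E-box CAGCTG or CATATG that OLIG factors can bind.
Pdgfra: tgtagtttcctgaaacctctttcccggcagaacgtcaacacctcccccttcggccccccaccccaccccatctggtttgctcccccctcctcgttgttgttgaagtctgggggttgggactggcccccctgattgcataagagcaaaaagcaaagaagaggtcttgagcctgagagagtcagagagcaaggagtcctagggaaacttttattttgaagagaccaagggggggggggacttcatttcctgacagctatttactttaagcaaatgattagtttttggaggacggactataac
Cspg4: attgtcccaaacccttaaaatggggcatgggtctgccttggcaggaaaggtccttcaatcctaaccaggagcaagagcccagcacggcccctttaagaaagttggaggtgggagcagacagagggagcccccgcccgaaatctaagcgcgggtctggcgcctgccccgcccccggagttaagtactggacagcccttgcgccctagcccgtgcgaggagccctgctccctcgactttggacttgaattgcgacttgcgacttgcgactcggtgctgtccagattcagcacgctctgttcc
Olig2: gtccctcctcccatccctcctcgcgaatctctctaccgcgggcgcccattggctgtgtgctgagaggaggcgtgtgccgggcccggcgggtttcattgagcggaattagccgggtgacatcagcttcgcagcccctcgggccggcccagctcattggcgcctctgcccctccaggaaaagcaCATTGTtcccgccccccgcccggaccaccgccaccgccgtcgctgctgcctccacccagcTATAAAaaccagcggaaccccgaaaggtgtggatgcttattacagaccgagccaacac
Enpp6: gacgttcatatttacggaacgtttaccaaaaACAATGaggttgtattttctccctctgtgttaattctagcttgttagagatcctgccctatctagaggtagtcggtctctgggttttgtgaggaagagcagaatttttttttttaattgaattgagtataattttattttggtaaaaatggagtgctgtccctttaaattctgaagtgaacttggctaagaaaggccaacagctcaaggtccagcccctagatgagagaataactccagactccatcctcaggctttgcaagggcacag
The Olig2 window held TATAAA from position -8 relative to the start site and, from position -68, a SOX core on the minus strand, which reads CATTGT on the strand shown. The Enpp6 window held the SOX core ACAATG from position -219. The Pdgfra and Cspg4 windows held none of these letters, and no window held the E-box. Of 32851 promoters of the same length, 13.6% held TATAAA, 28.6% the SOX core and 19.8% the E-box. The GC content was 51% for Pdgfra, 60% for Cspg4, 65% for Olig2 and 40.3% for Enpp6, against a median of 52.7% over all promoters. Olig1 and Olig2 are neighbours on chromosome 16 in that annotation, with 41091 bases between them.

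All 7 genes were higher in myelin-rich spots than in cortex, and by unequal amounts. By the median ratio over the sets, the precursor genes Pdgfra and Cspg4 differed least between these areas, Gpr17, Olig1 and Olig2 more, and the early myelination genes Bcas1 and Enpp6 most. A gene is called higher where its ratio was at least 1.5-fold with an interval leaving out 1 in each of the 4 sets. By this rule 7 of 7 were called higher, where 14.2% of the 13773 genes of at least 1 CPM were called higher and 5.87% lower. Higher calls made up 70.8% of all calls under CPM scaling, 44.99% under TMM scaling and 49.3% under RLE scaling, and 7 of 7 were called under each.

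Pdgfra, the receptor for platelet-derived growth factor, stood at 66.8, 38.3, 56.5 and 38.9 CPM in the myelin-rich spots of sets 1 to 4. In cortex it stood at 28.0, 20.02, 24.96 and 20.8 CPM, and the areas did not overlap. The ratios were 2.38 (95% interval 2.24 to 2.53), 1.91 (1.75 to 2.10), 2.26 (2.12 to 2.41) and 1.87 (1.69 to 2.06). Cspg4 stood at 30.6, 25.9, 34.1 and 29.6 CPM in myelin-rich spots against 12.5, 14.3, 14.6 and 15.6 CPM in cortex. Its lowest myelin-rich value was above its highest cortical value, and its ratios were 2.44, 1.81, 2.34 and 1.90. Of all genes tested, 1477 had a higher median ratio than Pdgfra and 1441 a higher one than Cspg4.

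Olig1 stood at 615, 343, 439.9 and 441 CPM in myelin-rich spots and at 132, 98.4, 128 and 123 CPM in cortex. Its ratios were 4.66 (4.55 to 4.78), 3.48 (3.36 to 3.61), 3.43 (3.34 to 3.52) and 3.58 (3.45 to 3.71). Olig2 stood at 50.6, 32.3, 36.3 and 43.8 CPM against 10.5, 9.50, 10.6 and 11.7 CPM. The ratios of Olig2 were 4.82, 3.40, 3.44 and 3.73, so the neighbouring genes kept to nearly the same ratios in every set. Set 1 had the largest ratio for both.

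Gpr17, the receptor of committed cells, stood at 143, 96.6, 68.9 and 120.4 CPM in myelin-rich spots against 31.4, 35.6, 20.5 and 34.2 CPM in cortex, with ratios of 4.55, 2.71, 3.37 and 3.52. Set 3 was lowest in both areas. Bcas1 stood at 309, 284, 139 and 451 CPM against 60.9, 73.5, 40.6 and 104 CPM, with ratios of 5.07, 3.86, 3.41 and 4.34. It too was lowest in set 3, and it was highest in set 4 in both areas. Enpp6 had the largest ratios of the 7 genes in each set, with 108, 27.7, 42.7 and 43.0 CPM in myelin-rich spots against 14.5, 4.97, 7.10 and 7.003 CPM in cortex. These ratios were 7.44 (6.92 to 8.002), 5.58 (4.80 to 6.49), 6.02 (5.44 to 6.66) and 6.14 (5.33 to 7.09), and 189 genes had a higher median ratio. Areas were also taken from clusters of spots, each cluster being named by its mean marker scores. The clusters named as white matter held fewer spots, 462, 116, 300 and 365 in sets 1 to 4. With these areas the ratios of Enpp6 were 10.2 to 18.7, those of Bcas1 5.37 to 11.9 and those of Gpr17 4.97 to 7.74. Those of Olig1 were 5.35 to 8.02 and those of Olig2 5.77 to 8.09, while Cspg4 had 2.57 to 3.53 and Pdgfra 2.05 to 3.07.

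**Figure D1:**
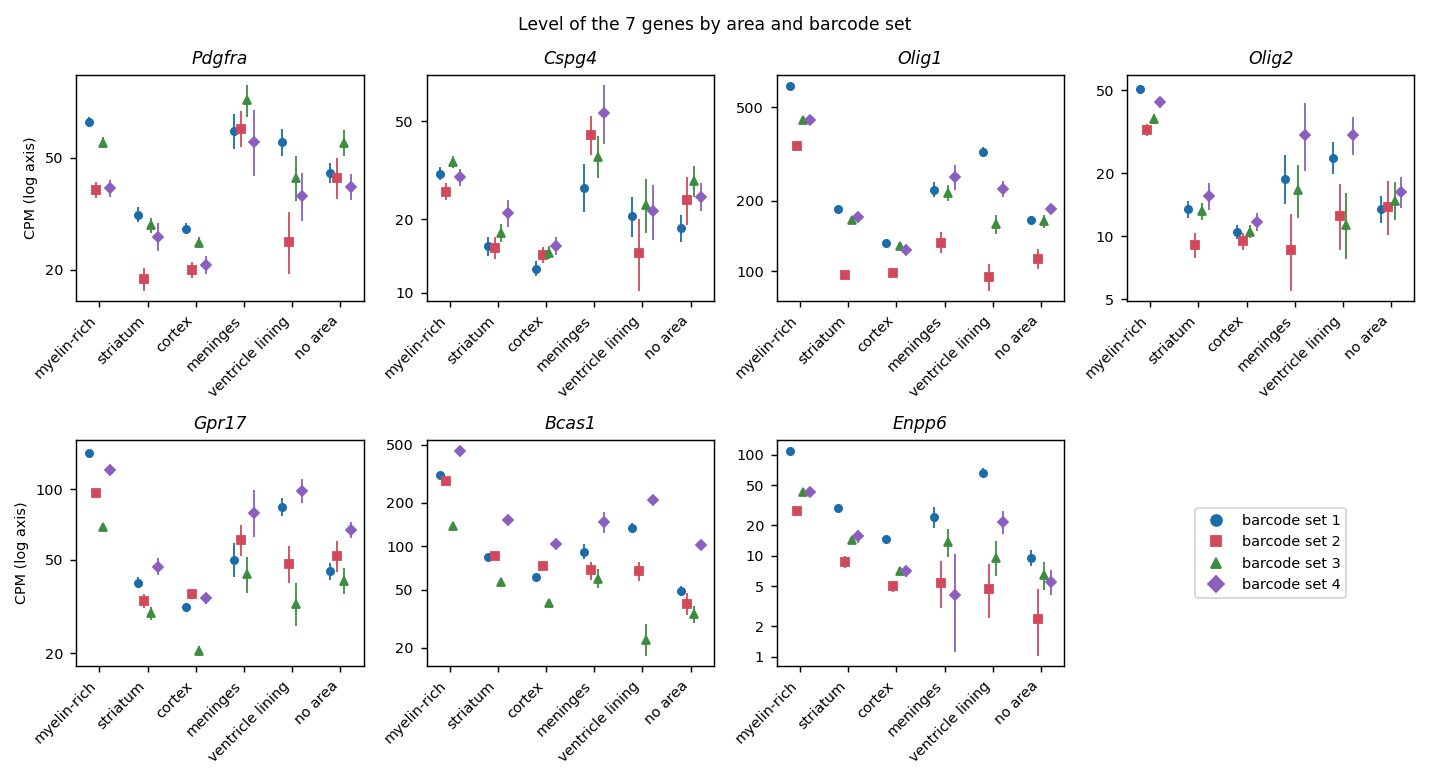
Level of each of the 7 genes in CPM (log axis) in 5 areas and in spots of no area, 1 point per barcode set with its 95% counting interval. Olig1, Olig2, Gpr17, Bcas1 and Enpp6 have their highest median in myelin-rich spots, while Pdgfra and Cspg4 have theirs in the meninges.

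**Figure D2:**
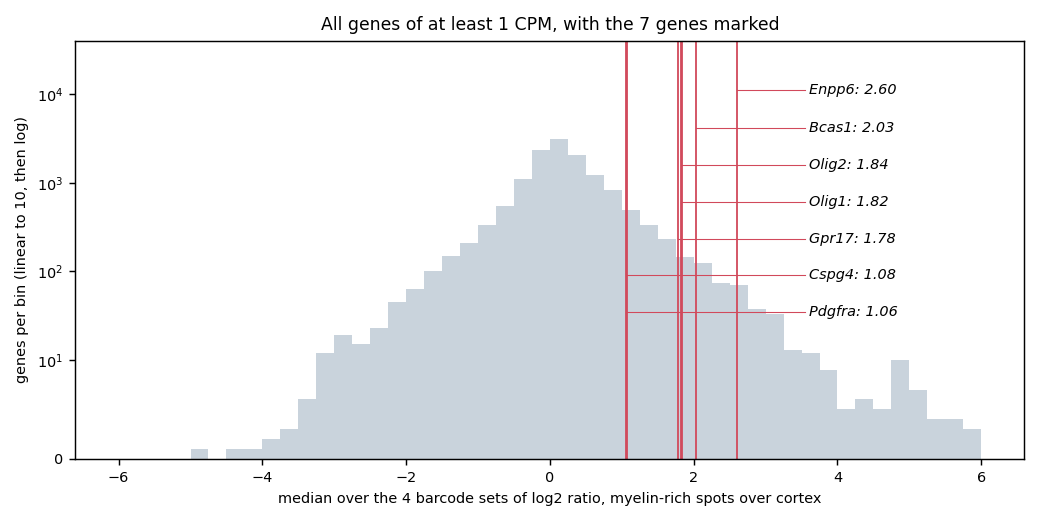
Number of genes by the median over the 4 barcode sets of the log2 ratio of myelin-rich spots to cortex, for all 13773 genes of at least 1 CPM (bars, vertical axis linear to 10 and then log), with the 7 genes as lines. All lie to the right of the median over all genes of 0.15, from 1.06 for Pdgfra to 2.60 for Enpp6.

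Against striatum, the rule called Olig1, Olig2, Gpr17, Bcas1 and Enpp6 higher in myelin-rich spots, which is 5 of 7 where 16.7% of all genes were called higher and 6.69% lower. Higher calls made up 71.5% of all calls here under CPM scaling, 49.0% under TMM scaling and 54.2% under RLE scaling. Pdgfra stood at 31.4, 18.6, 28.8 and 26.2 CPM in striatum, so that the myelin-rich spots were 2.13, 2.06, 1.96 and 1.49 times higher. Cspg4 stood at 15.5, 15.3, 17.6 and 21.1 CPM there, with ratios of 1.98, 1.69, 1.94 and 1.40. Both missed the call through set 4 alone, and 7 of 7 were called without that set, where 18.5% of all genes were called higher. Striatal Olig1 stood at 184, 96.5, 166 and 169.9 CPM, and the ratios to it were 3.34, 3.551, 2.65 and 2.60. Olig2 stood at 13.5, 9.05, 13.2 and 15.5 CPM in striatum, with ratios of 3.76, 3.56, 2.75 and 2.82. The 3 genes of the committed and early myelinating stages had striatal ratios of 2.33 to 3.58 for Gpr17, 2.46 to 3.68 for Bcas1 and 2.75 to 3.66 for Enpp6. With areas taken from clusters of spots these were 3.29 to 7.73, 3.79 to 8.71 and 4.36 to 9.06, while Olig1 had 3.53 to 7.01 and Olig2 4.05 to 7.22. With clusters Pdgfra had 1.52 to 2.98 and Cspg4 1.77 to 2.76, so both reached 1.5-fold in all 4 sets. Under TMM scaling their lowest ratios were 1.27 and 1.19. Whether these 2 genes pass the fold thus depends on the setting.

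Between striatum and cortex, which enter the comparisons above as their shared references, Enpp6 alone was called, 1 of 7 where 8.25% of all genes were called higher and 11.3% lower. Enpp6 stood at 29.4, 8.76, 14.4 and 15.6 CPM in striatum, and its ratios to cortex were 2.03 (1.85 to 2.23), 1.76 (1.46 to 2.13), 2.03 (1.79 to 2.31) and 2.23 (1.83 to 2.71). Bcas1 stood at 83.9, 85.9, 56.4 and 151 CPM in striatum with ratios of 1.38, 1.17, 1.39 and 1.45, which did not reach 1.5-fold. Gpr17 stood at 39.95, 33.4, 29.5 and 46.7 CPM with ratios of 1.27, 0.938, 1.44 and 1.37. In set 2 the ratio was below 1 for Pdgfra (0.928), Olig1 (0.981), Olig2 (0.954) and Gpr17, and above 1 for each of these in the other sets. The intervals of all 4 in set 2 took in 1, and with areas taken from clusters of spots their lowest ratios over the sets were 1.03, 1.14, 1.12 and 1.00.

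**Figure D3:**
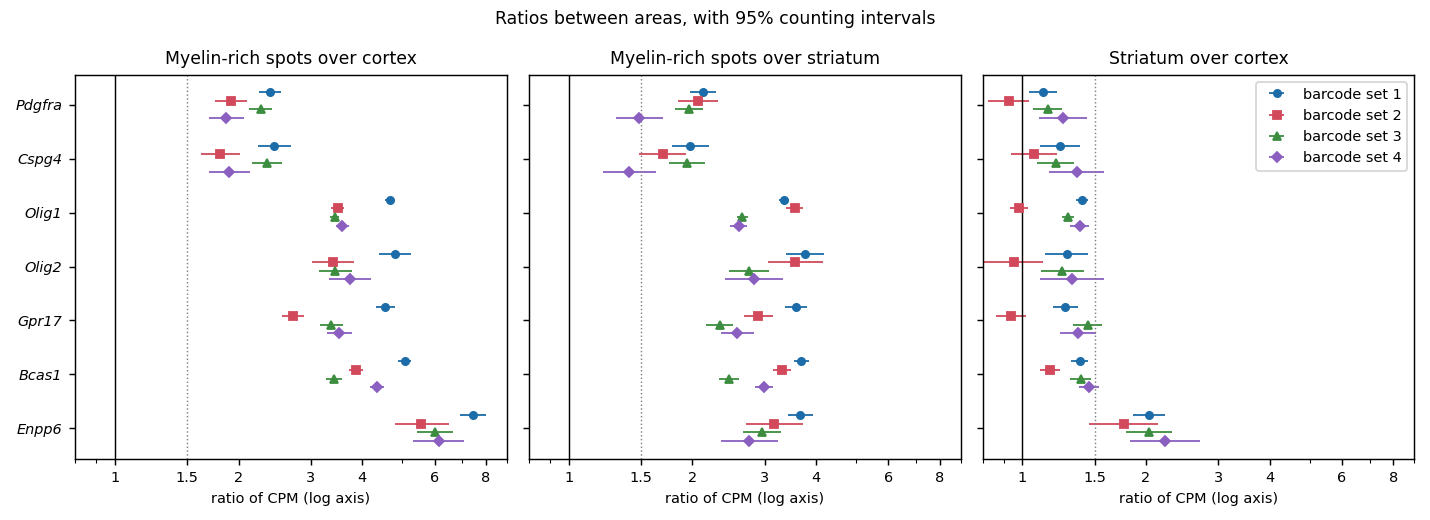
Ratio of CPM between areas (log axis) for each gene and barcode set, with 95% counting intervals, a solid line at 1 and a dotted line at 1.5. Enpp6 lies furthest right in the comparison of myelin-rich spots with cortex, and it alone lies above 1.5 in all 4 sets between striatum and cortex.

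Other genes of the lineage were read from gene lists. Of 14 further precursor genes, 8 were called higher in myelin-rich spots than in cortex and 0 lower, with a median ratio of 1.80. Of all genes 14.2% were called higher and 5.87% lower. Lhfpl3 had ratios of 3.64, 4.11, 4.25 and 3.48, Neu4, a sialidase gene, 2.71 to 3.99, and C1ql1, which encodes a secreted C1q-like protein, 2.38 to 3.46. Of 13 genes of committed and early myelinating cells, 10 were called higher and 0 lower, with a median ratio of 2.38. Tns3, which encodes a tensin of focal adhesions, had ratios of 2.96 to 4.40, the kinesin gene Kif19a 2.59 to 4.59 and the scaffold gene Cnksr3 2.58 to 3.50. The 7 genes themselves had a median ratio of 3.53, and the 12 myelin markers that define the area 6.64. Against striatum, where 16.7% of all genes were called higher and 6.69% lower, the order of the lists turned. The precursor list had a median ratio of 2.31, with 8 called higher and 1 lower. The committed list had a median ratio of 2.10, with 9 called higher and 0 lower. The lower precursor gene was Cacng4, which encodes an auxiliary subunit of AMPA receptors.

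Of 13 lineage regulators, 9 were called higher in myelin-rich spots than in cortex and 1 lower, with a median ratio of 2.80. The shares of all genes were 14.2% higher and 5.87% lower. Nkx6-2, a homeodomain factor of the lineage, had ratios of 9.35, 9.78, 7.09 and 9.20. Tcf7l2, a factor of the Wnt pathway that is also made by thalamic neurons, had ratios of 6.21, 4.44, 6.80 and 10.1, and Myrf, the factor that turns on myelin genes, 4.76 to 7.17. Sox10, the partner of the Olig factors, had ratios of 4.57 to 6.03. Id2, which encodes an inhibitor of helix-loop-helix factors and is also made by neurons, was the lower one, at 0.488 to 0.578.

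A further list held the ligand genes Pdgfa, Pdgfb, Pdgfc and Pdgfd with Pdgfrb, Grip1 and Cspg5. Of this list 0 of 7 were called between myelin-rich spots and cortex, with a median ratio of 1.25. Pdgfa, which encodes the main ligand of precursors, had ratios of 1.06 to 1.45. Pdgfb had ratios of 0.645, 0.547, 0.668 and 0.556, short of the lower call because set 3 stayed within 1.5-fold. Pdgfd had ratios of 3.18, 1.27, 2.63 and 3.05, and Pdgfrb, the receptor of mural cells, 1.27 to 1.58.

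Markers of other cells were called in unequal numbers between the same areas, and the share of all genes called higher was 14.2%. Of 8 astrocyte markers 5 were called higher in myelin-rich spots than in cortex, and of 8 progenitor and neuroblast genes 5 as well. The astrocyte markers were led by Agt with ratios of 18.1 to 34.2 and Gfap with 6.24 to 10.1. Of 8 mural markers 1 was called, Notch3, with ratios of 1.73 to 2.41, and the summed level of the list was 139 to 195 CPM in myelin-rich spots against 106 to 171 CPM in cortex. The list of 8 fibroblast genes had 2 called, Igf2 and Dcn, and a summed level of 60.3 to 73.7 against 40.2 to 48.0 CPM. For 8 microglia markers 0 were called, with a median ratio of 1.59 and a summed level of 574 to 767 against 393 to 428 CPM. No marker of these lists was at 0 in either area, and their part in the ratios of the 7 genes was not tested.

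Myelin content also varied inside each area, and the 7 genes did not follow it alike. In each set, the spots of an area were put in 5 bins of equal size by their summed myelin marker CPM, with bin 1 the lowest and bin 5 the highest. In cortex Pdgfra and Cspg4 showed no trend. Pdgfra stood at 29.6, 19.7, 28.6 and 24.0 CPM in bin 1 of sets 1 to 4 and at 29.97, 19.6, 27.9 and 20.4 CPM in bin 5, with ratios of 1.01 (0.875 to 1.17), 0.996 (0.807 to 1.23), 0.973 (0.846 to 1.12) and 0.849 (0.671 to 1.07). Cspg4 had ratios of 1.24, 1.02, 1.03 and 0.863, and the intervals of all 4 sets took in 1. The other genes were called higher in bin 5 than in bin 1, 5 of 7 where 3.58% of all genes were called higher and 3.35% lower.

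Enpp6 stood at 5.34, 1.71, 1.79 and 1.49 CPM in bin 1 of the cortical spots and at 35.2, 11.1, 16.8 and 15.7 CPM in bin 5, with ratios of 6.58, 6.46, 9.42 and 10.5. Bcas1 rose from 24.7, 23.6, 16.1 and 30.6 CPM to 119, 134, 68.6 and 202 CPM, with ratios of 4.84, 5.70, 4.25 and 6.61. Both rose at each of the 4 steps from bin to bin in all 4 sets. Olig1 and Olig2 rose at each step as well, with ratios of 2.502 to 3.07 for Olig1 and 2.00 to 2.35 for Olig2. Gpr17 had the smallest called ratios, 2.12, 1.57, 1.91 and 1.5004, the last only just past the threshold, and under TMM or RLE scaling it was not called. With each spot thinned to 10000 counts, Olig1, Bcas1 and Enpp6 were the genes still called.

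These cortical bins also differed in layer markers. Foxp2, a marker of the deepest layer, was 22.5, 26.7, 18.1 and 10.8 times higher in bin 5 than in bin 1, and Tle4 of the same layer 3.81 to 5.71 times. Cux2, a marker of the upper layers, stood at 0.116 to 0.233 of its first value. Fibroblast genes fell, 5 of 8 being called lower. The list of precursor genes had 0 of 14 called, with a median ratio of 0.915, and committed genes had 5 of 13 called higher, with a median of 1.55. The part of cortical depth in the ratios of the 7 genes was not tested.

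In striatum bin 5 was called higher for Olig1, Olig2, Bcas1 and Enpp6, 4 of 7 where 1.88% of all genes were called higher and 0.116% lower. Enpp6 stood at 8.95, 2.53, 6.48 and 3.16 CPM in bin 1 and at 57.6, 16.3, 25.9 and 33.6 CPM in bin 5, with ratios of 6.43, 6.44, 4.00 and 10.6. Olig2 had ratios of 3.34, 3.72, 4.14 and 4.53, larger in each set than its cortical ones. Gpr17 had ratios of 2.06, 1.49, 1.73 and 2.82 and missed the call through set 2. Pdgfra had ratios of 1.09 to 1.37 and Cspg4 of 1.01 to 1.30. The list of precursor genes had 0 of 14 called here too, and committed genes had 5 of 13 called higher, with a median ratio of 1.79.

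Inside the myelin-rich area all of the genes but Pdgfra were called, 6 of 7 where 8.71% of all genes were called higher and 11.3% lower. Pdgfra stood at 59.0, 32.6, 49.4 and 37.1 CPM in bin 1 and at 94.3, 56.6, 72.0 and 49.4 CPM in bin 5, with ratios of 1.60, 1.74, 1.46 and 1.33. Cspg4 had ratios of 1.56, 1.85, 1.65 and 2.09, and it was not called when spots were thinned. Enpp6 stood at 24.6, 7.03, 11.6 and 10.1 CPM in bin 1 and at 269, 99.96, 140.2 and 136 CPM in bin 5, with ratios of 10.9, 14.2, 12.1 and 13.5. Bcas1 had ratios of 4.42 to 7.13, Olig2 of 4.46 to 4.53, Gpr17 of 3.36 to 4.45 and Olig1 of 3.50 to 3.99. Here the list of precursor genes had 4 of 14 called higher and 1 lower, with a median ratio of 1.26. Committed genes had 10 of 13 called higher, with a median of 3.07. The median counts per spot fell along these bins, from a range over the sets of 26555.5 to 50404 in bin 1 to one of 16066 to 31306.5 in bin 5. All 8 microglia markers were called higher in bin 5, with a median ratio of 1.95, and the part of these in the ratios was not tested.

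**Figure D4:**
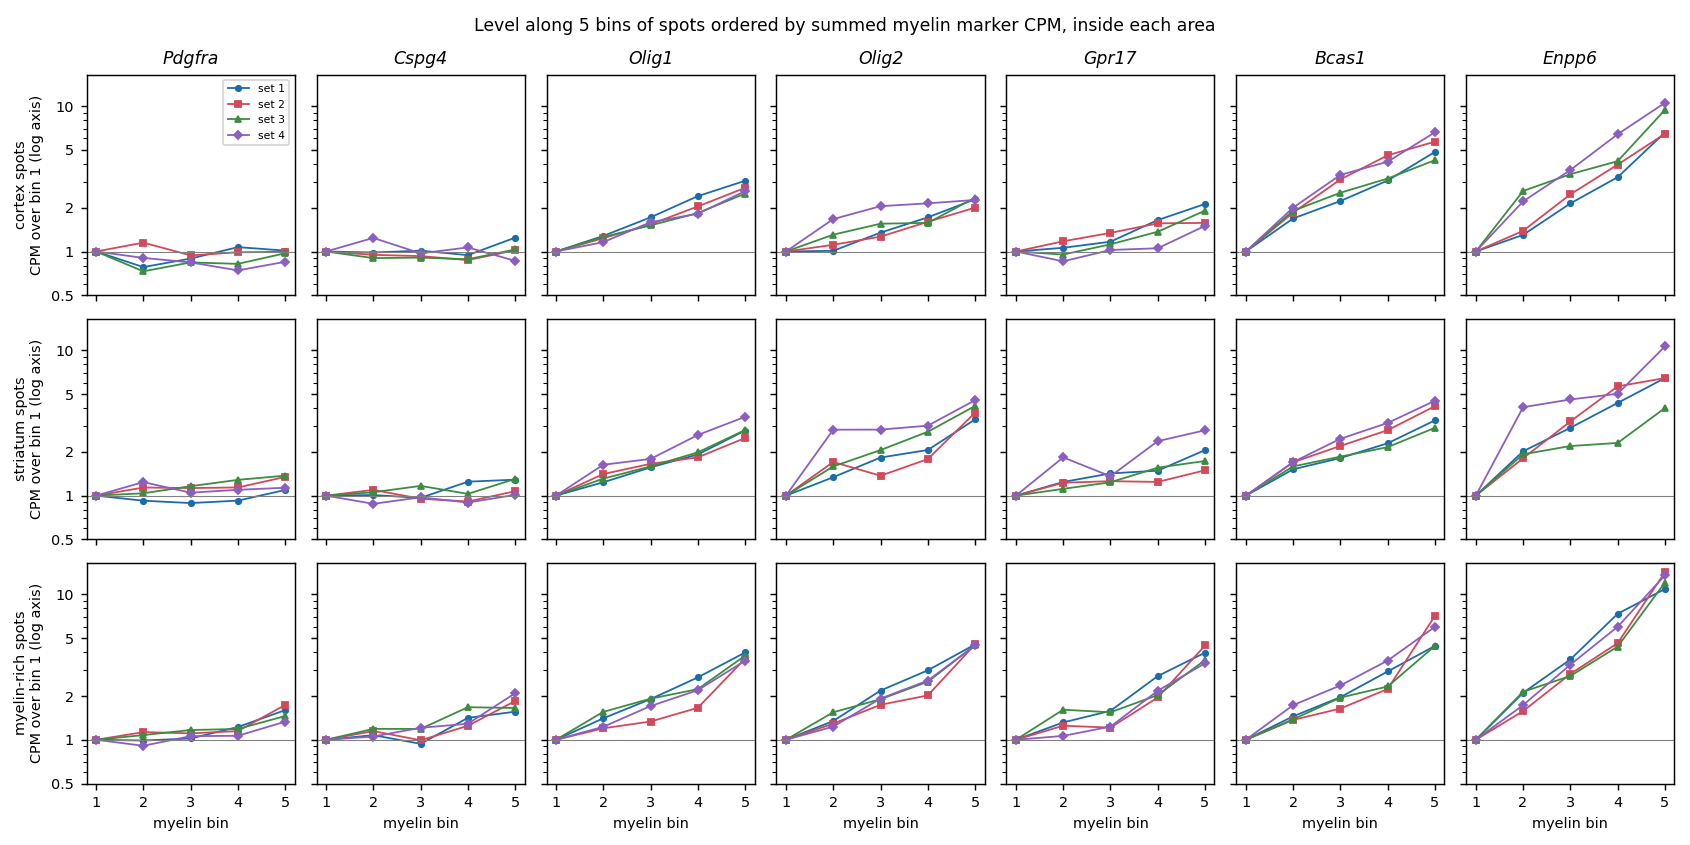
Level over that in bin 1 (log axis) along 5 bins of spots ordered by summed myelin marker CPM, with areas in rows, the 7 genes in columns and 1 line per barcode set. In cortex the lines of Pdgfra and Cspg4 stay near 1, while those of Bcas1 and Enpp6 end at 4.25 to 6.61 and at 6.46 to 10.5.

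In the spots with meningeal markers Pdgfra and Cspg4 were higher than in cortex, while Bcas1 and Enpp6 were not called. The longer lists did not show such a difference between stages, with 4 of 14 precursor genes and 4 of 13 committed genes called higher and median ratios of 1.57 and 1.63. Pdgfra stood at 62.0, 63.4, 79.7 and 57.0 CPM there, and its ratios to cortex were 2.21, 3.17, 3.19 and 2.73. Cspg4 stood at 26.9, 44.0, 36.0 and 53.9 CPM, with ratios of 2.14, 3.07, 2.47 and 3.47. These were the highest medians of both genes over the areas measured in all 4 sets, and each was above its myelin-rich value in sets 2 to 4 and below it in set 1. Gpr17 stood at 50.1, 60.5, 43.4 and 79.3 CPM with ratios of 1.59, 1.70, 2.12 and 2.32, and it was not called under TMM or RLE scaling. Pdgfra, Cspg4 and Gpr17 were the genes called higher, 3 of 7 where 12% of all genes were called higher and 2.25% lower. Without set 2 Olig1 and Olig2 were called too, but a rule over fewer sets is looser and no share of all genes is given for it.

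Bcas1 stood at 91.9, 68.0, 59.7 and 146 CPM in the meninges with ratios to cortex of 1.51, 0.925, 1.47 and 1.41. Enpp6 stood at 24.2, 5.37, 13.6 and 4.07 CPM, and the last of these rests on 4 counts. Its ratios to cortex were 1.67 (1.30 to 2.12), 1.08 (0.596 to 1.82), 1.91 (1.35 to 2.64) and 0.581 (0.157 to 1.51), above 1 beyond counting error in sets 1 and 3. The 8 fibroblast genes that define the area summed to 992 to 1851 CPM against 40.2 to 48.0 CPM in cortex. Of the mural markers 7 of 8 were called higher, with a sum of 314 to 652 CPM against 106 to 171 CPM. Astrocyte markers had 7 of 8 and microglia markers 7 of 8 called higher, and the part of these cells in the levels of the 7 genes was not tested.

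Inside cortex, spots were also put in 5 bins by their summed mural marker CPM. Cspg4 was the one gene called, 1 of 7 where 1.31% of all genes were called higher and 0.029% lower, with ratios of 1.84, 1.65, 1.61 and 1.74. It was not called with spots thinned to 10000 counts or with areas taken from clusters. Pdgfra had ratios of 1.56, 1.12, 1.00 and 1.08. Fibroblast genes moved with the mural markers, 4 of 8 being called higher. In myelin-rich spots 0 of 7 were called along mural bins, where 0.516% of all genes were called higher and 0.0218% lower, and Cspg4 had ratios of 1.16, 2.05, 1.30 and 1.43.

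At the lining of the ventricles, where new neurons and some oligodendrocytes are born, Bcas1, Enpp6 and Olig1 were lower than in myelin-rich spots, 3 of 7 where 2.82% of all genes were called lower and 7.33% higher. Bcas1 stood at 134, 67.4, 22.7 and 210 CPM there, 0.434, 0.237, 0.164 and 0.465 of its myelin-rich level. Enpp6 stood at 66.4, 4.70, 9.59 and 21.5 CPM, 0.616, 0.170, 0.224 and 0.4998 of that level. Without set 4 Olig2 and Gpr17 were called lower as well, under a looser rule for which no share of all genes is given. The longer lists of both stages had 0 genes called lower over all 4 sets. Of 14 precursor genes 0 were called higher, with a median ratio of 0.758, and of 13 committed genes 1, with a median of 0.74. Of 13 lineage regulators 2 were called lower and 1 higher. All 12 myelin markers that define the myelin-rich area were called lower, with a median ratio of 0.2499. Against cortex 0 of the 7 genes were called at 1.5-fold in all 4 sets, where 18.5% of all genes were called higher and 6.59% lower. Pdgfra had ratios to cortex of 2.03, 1.25, 1.69 and 1.75, and Gpr17 of 2.68, 1.34, 1.58 and 2.88.

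From the lowest to the highest set, 7 of 7 genes differed by at least 1.5-fold at the ventricle lining, where 66.3% of all genes did. The summed myelin markers there were 16491, 2381, 2846 and 6086 CPM, and Enpp6 had the same order of sets, 1, 4, 3 and 2. The Enpp6 intervals of sets 3 and 2 overlapped, at 6.32 to 13.95 and 2.43 to 8.22 CPM. Of 8 progenitor and neuroblast genes 7 were called higher than in cortex, with a median ratio of 5.12.

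In the areas reached by some sets only, the levels are given without a call. In choroid plexus, the tissue that makes cerebrospinal fluid, Pdgfra stood at 60.6 and 63.5 CPM in sets 1 and 3, in the range of the meninges, while Gpr17 stood at 25.6 and 23.1 CPM and Olig2 at 9.82 and 12.3 CPM. Cspg4 was 9.82 and 15.3 CPM there. In thalamus Olig1 stood at 232 and 219 CPM in sets 1 and 4, above every striatal and cortical value of that gene, and Enpp6 at 20.4 and 9.09 CPM. In hypothalamus and basal forebrain Pdgfra stood at 43.3, 37.8 and 51.8 CPM in sets 1 to 3, and Enpp6 at 9.69, 5.41 and 6.76 CPM. Bcas1 stood at 35.6, 67.6 and 28.8 CPM in these 3 sets.

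Ordered by the median over sets, Olig1 and Olig2 separated myelin-rich spots from all other areas measured in 4 sets, with ranges that did not overlap the next area. For Olig1 the next area was the meninges with 132 to 251.3 CPM, and for Olig2 the lining of the ventricles with 11.4 to 30.3 CPM. For Gpr17, Bcas1 and Enpp6 the myelin-rich median was highest too and was above the next area, the lining of the ventricles, in 4 of 4 sets, but the ranges overlapped. For every gene the neighbours further down the order overlapped in range. Cortex was lowest for all of the genes except Bcas1 and Enpp6, whose lowest medians were in spots of no area.

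Between the sets themselves, 5 of 7 genes differed by at least 1.5-fold from the lowest to the highest set over whole sections, where 46.2% of all genes did so. Enpp6 stood at 39.3, 10.9, 15.98 and 17.6 CPM in sets 1 to 4, which is 3.61-fold from lowest to highest, and Bcas1 at 121, 122, 62.3 and 203 CPM, which is 3.26-fold. Gpr17 stood at 61.2, 51.4, 34.3 and 64.6 CPM and differed 1.89-fold. Olig1 differed 1.66-fold, Pdgfra 1.57-fold, Olig2 1.485-fold and Cspg4 1.19-fold, beside a median of 1.47-fold over all genes. Without set 1, and likewise without set 2, 3 genes reached 1.5-fold, which were Gpr17, Bcas1 and Enpp6. Leaving out a set cannot raise this ratio for any gene, and no share of all genes is given for it. Enpp6 differed 1.62-fold without set 1, Bcas1 1.69-fold without set 3 and 1.96-fold without set 4, and Gpr17 1.26-fold without set 3. Which sets came from which genotype is not known here, so these differences cannot be set against Celsr3.

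Sets also differed inside areas. In myelin-rich spots 6 of 7 genes differed by at least 1.5-fold, beside 52.4% of all genes, and Enpp6 differed 3.89-fold. Without set 1 it was 3 of 7, and Enpp6 differed 1.55-fold, or 2.52-fold without set 2. In striatum it was 6 of 7, beside 49.4% of all genes, and 3 of 7 without set 2. Here too no share of all genes is given with a set left out, where the ratio can only fall or stay. Enpp6 followed the summed myelin markers, which were 32687, 13426, 15616 and 17498 CPM in the myelin-rich spots of sets 1 to 4 and had the same order of sets there. In striatum these sums were 8344, 3648, 5802 and 5934 CPM and in cortex 4242, 2234, 2904 and 2522 CPM, again with the order of sets of Enpp6. Sets 3 and 4 were not apart in Enpp6 beyond counting error. The ratios of set 3 to set 4 were 0.994 (0.916 to 1.08) in myelin-rich spots, 0.925 (0.779 to 1.10) in striatum and 1.01 (0.870 to 1.19) in cortex. The shared order thus rests on set 1 being highest and set 2 lowest. Bcas1 had another order, with set 3 lowest and set 4 highest in all of these areas. Sox10, at 38.5, 46.6, 27.3 and 70.9 CPM over whole sections, and Nkx2-2, at 19.5, 21.4, 13.9 and 26.3 CPM, were also lowest in set 3 and highest in set 4. Inside cortex 3 of 7 reached 1.5-fold, Gpr17, Bcas1 and Enpp6, where 46.0% of all genes did. In cortex Enpp6 missed 1.5-fold without set 1 and Gpr17 without set 3.

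**Figure D5:**
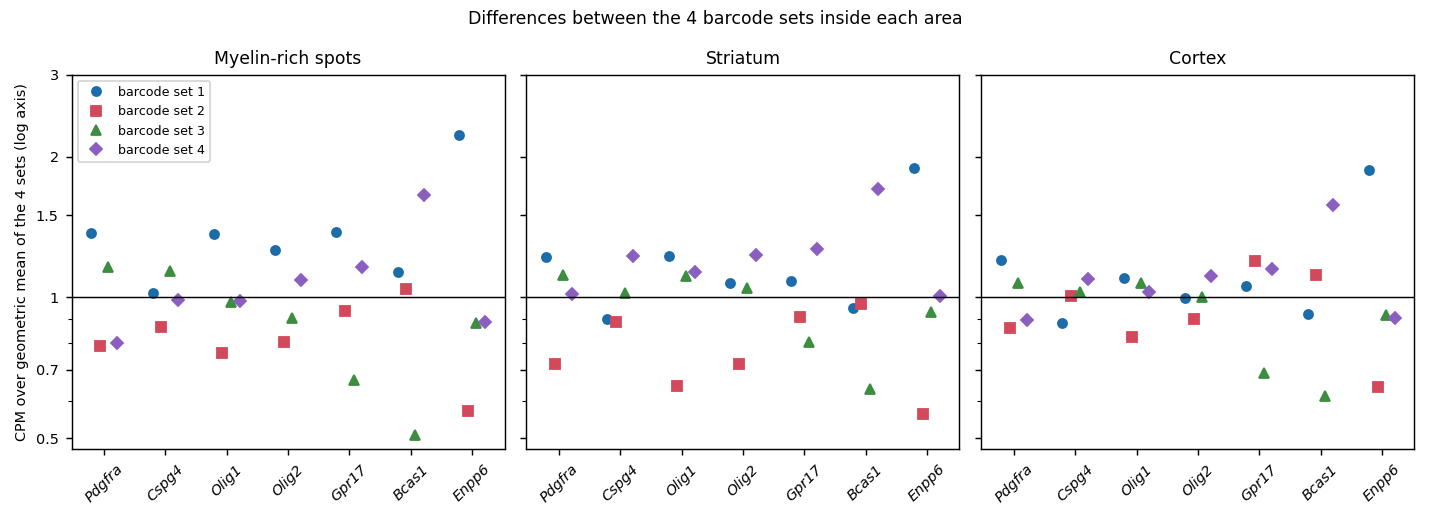
Level of each gene in each barcode set over the geometric mean of the 4 sets (log axis), in myelin-rich spots, striatum and cortex. Enpp6 is highest in set 1 and lowest in set 2 in each area, and Bcas1 is highest in set 4 and lowest in set 3.

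Single myelin-rich spots varied more for Enpp6 and Gpr17 than for Olig1. The measure is the squared coefficient of variation over spots thinned to 10000 counts, less the share due to counting. In myelin-rich spots it was 0.924, 1.82, 1.44 and 1.20 for Enpp6 in sets 1 to 4 and 0.664, 1.42, 0.871 and 1.27 for Gpr17. For Olig1 it was 0.305 to 0.401, and the median over 11466 genes was 0.0896 to 0.119. Olig1 had a count in 94.4% to 98.4% of these spots and Enpp6 in 21.5% to 56.6%. In striatum Gpr17 was above Olig1 in each set, at 0.607 to 1.01 against 0.132 to 0.237. Enpp6 was above Olig1 there in sets 1 and 4, at 0.672 and 0.993. It was below Olig1 in sets 2 and 3, at -0.496 and 0.109 against 0.186 and 0.234. In those 2 sets Enpp6 had means of 0.0791 and 0.154 thinned counts per spot. In cortex both were above Olig1 in each set. Enpp6 had 0.928 to 2.14 there, Gpr17 0.533 to 1.11 and Olig1 0.274 to 0.317. The gradient of myelin content inside each area was not removed from this measure.

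The genes most like each of the 7 were found by Pearson correlation of log2(CPM + 1) over 31 points, each an area in a set, centred within the set. The points share libraries and total counts, so these values are descriptions. Among the genes most like Enpp6 were Galnt6 and Ugt8a, which makes a myelin lipid, with r of 0.95 for both. Bcas1 was most like Gal3st1, Evi2a and Pllp, with r of 0.97 for each. Gpr17 was most like Wscd1 at 0.96, Nkx2-2 at 0.93 and Neu4 at 0.93. Olig1 was most like Fnbp1 at 0.96, Efhd1 at 0.96 and Wscd1 at 0.94, and Olig2 like Wscd1, Olig1 and Lap3, each at 0.92.

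Among the genes most like Pdgfra were Apoe, an apolipoprotein gene of astrocytes, at 0.89 and Caskin2 at 0.87. Cspg4 was most like Plcg2, a phospholipase gene of microglia, at 0.92, Selenop at 0.89 and Mmd2 at 0.87. Among the 7 genes the highest values were 0.92 for Olig1 with Olig2, 0.92 for Olig1 with Gpr17 and 0.91 for both Bcas1 with Enpp6 and Olig2 with Gpr17. Pdgfra had 0.77 with Cspg4, 0.18 with Bcas1 and 0.15 with Enpp6.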

How the data were processed

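The authors deposited 1 table of raw counts per gene and spot, checked here to hold whole numbers. The submitters' processing notes name Space Ranger and Seurat without versions, and the genome build and probe set are not given in the sources used here. The 7 genes, the gene lists and the area markers were chosen with earlier results of these data known. Spots under 500 counts were left out, which removed 1. Endings of spot names were not tied to a mouse, so no p-value is given.

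An area score was the mean log2(CPM + 1) of its markers, with thresholds per set by Otsu's method for myelin-rich spots, striatum and cortex (scikit-image 0.26.0) and at the median plus 3 scaled MAD for the others. A spot went to the area it passed by the most SDs. Levels are given for areas of at least 20 spots. Intervals came from scipy 1.17.1. Named genes were the 7, the 3 genes of at least 5 CPM in each list with the largest change between myelin-rich spots and cortex, and the 3 most like each of the 7. Sox10, Nkx2-2, Id2, Pdgfa, Cacng4, the layer markers and the examples of area markers fall outside that rule and were chosen after their values were seen.

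Alternatives were areas from Leiden clusters (resolution 0.8, scanpy 1.11.5, leidenalg 0.10.2), core spots at least 0.5 SD above the threshold, a minimum of 2000 counts, TMM and RLE scaling (edgeR 4.0.16 in R 4.3.3), spots thinned to 10000 counts, each set left out, a fold of 2 and no filter on genes. Thinning left out 199 shallower spots. The comparisons with meninges and ventricle lining, those along bins, and an area score from summed marker CPM were chosen after seeing the data. Python 3.11.15 ran the rest, with scikit-learn 1.9.0, pandas 2.3.3, numpy 2.4.6 and matplotlib 3.10.9. Some genes that these rules pick are not reported here.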

Additional observations from a re-analysis of the deposited data

How the results depend on the processing

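Between myelin-rich spots and cortex, 7 of 7 genes were called under every alternative run except a fold of 2, which called 5. Against striatum 5 to 7 were called. A fold of 2 called 0 genes between striatum and cortex, left 2 genes apart between sets and, at the ventricle lining, called 1 gene lower than in myelin-rich spots. Leaving out each set in turn gave 3 to 5 genes apart between sets, 3 to 5 called in the meninges and 3 to 5 at the ventricle lining. No share of all genes is given for these counts. At the ventricle lining, areas from Leiden clusters gave 6 and TMM scaling 5. Along myelin bins in cortex, thinning left 3 genes called. Along mural bins, thinning, areas from clusters and a fold of 2 each left 0. For these counts too no share of all genes is given, so they are not results about the 7 genes alone. Thinned to 10000 counts, the striatum to cortex ratio of Pdgfra in set 4 fell to 0.99 and that of Olig2 in set 1 to 0.883. Over all genes, TMM scaling called 1189 higher and 1454 lower in myelin-rich spots than in cortex, RLE scaling 1272 and 1310, and a fold of 2 called 954 and 375, against 1955 and 808. Clusters called 1469 lower. Against striatum, TMM scaling called 1473 and 1535 and a fold of 2 called 1231 and 466, against 2305 and 921. Between striatum and cortex a fold of 2 called 600 and 898, against 1136 and 1553. TMM scaling moved all log2 ratios of myelin-rich spots to cortex by -0.24 to -0.31. The cause of these changes was not tested. No paired analysis was possible because no set carries a replicate number of the labels that could pair the genotypes. Between areas each ratio was taken within a set, and no test over the sets was run. Depth limits Enpp6 in the small areas, where set 4 had 4 counts in the meninges.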
